A study of Mus musculus with 4 samples.

Results

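Transcripts of the cohesin complex, its regulators and the DNA-binding protein CTCF were examined in mouse Th17 cells given a CRISPR guide against Adarb1, the gene of the RNA-editing enzyme ADAR2. The 10 genes were taken by name: Smc1a, Smc3, Rad21, Stag1, Stag2, Nipbl, Wapl, Pds5a, Pds5b and Ctcf. All 10 were found among the 55450 genes of the authors' deposited table, each under a single identifier, and all 10 were among the 29383 genes with a fold change. RNA sequencing covered 4 cultures, 2 transduced with a PSIN retroviral vector carrying sgAdarb1 and 2 with the empty PSIN vector. Both groups carried a Cas9 transgene, so the control cells held the nuclease without a guide. One sgAdarb1 and one empty-vector culture came from each of 2 donor mice, per the series' design text. Per the labels' protocols, the mice were 8 to 12 weeks old, and naive CD4 T cells were stimulated with anti-CD3 (0.25 µg/mL) and anti-CD28 (1 µg/mL), given retrovirus after 24 h and polarized for 72 h with TGF-β (0.3 ng/mL) plus IL-6 (20 ng/mL). The treatment tag contradicts the title in 2 of the 4 samples, and groups are named here from the titles. The extent of cutting at Adarb1 and of editing was not analysed here, and Adarb1 mRNA lay at 0.11 ± 0.12 (log2 fold change with its standard error) per the authors' deposited table, a value that need not fall after a Cas9 cut.

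Cohesin is a ring of proteins that embraces DNA. It holds sister chromatids together from DNA replication to mitosis, and in interphase it extrudes chromatin loops, many of which end where CTCF is bound in the right orientation. The SMC proteins and the kleisin RAD21 form the ring, a STAG subunit binds to it, NIPBL loads it and drives extrusion, and WAPL with the PDS5 proteins releases it. In T cells, loops held by cohesin and CTCF shape antigen receptor and cytokine loci.

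No member passed the test. Of the 10 members 0 had an adjusted p below 0.05 per the authors' deposited table (DESeq2 Wald test, Benjamini-Hochberg adjustment), as did 0 of all 29383 genes (0.00% called). At an unadjusted p below 0.05 the count per the authors' deposited table was 0 of 10 members, against 61 of all genes (0.208%) and 48 of the 3664 genes averaging at least 1000 normalized counts (1.31%). All 10 members nevertheless had a log2 fold change below 0, which is read here as lower in sgAdarb1 than in empty vector. That reading rests on the design text and the titles and could not be checked, as described below. Below 0 were also 49.5% of the 14547 genes averaging at least 10 normalized counts and 50.8% of those averaging at least 1000. The member values ran only from -0.17 (Nipbl) to -0.02 (Stag2) per the authors' deposited table, with a median of -0.08, or 0.948-fold. The median over genes averaging at least 1000 was -0.00, and their quartiles were -0.06 and 0.06. Signs of 10 genes measured in the same 4 libraries are not independent, and no test of the group was made.

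**Figure D1:**
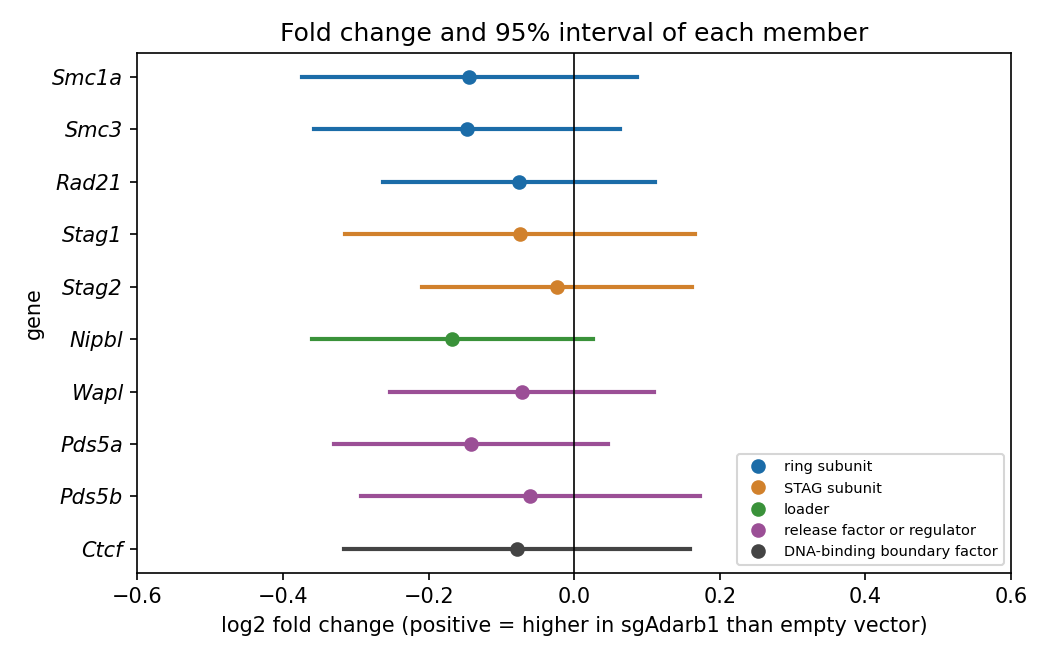
Log2 fold change of each member with its 95% interval from the standard error per the authors' deposited table, ordered and coloured by role. Positive values are read as higher in sgAdarb1 than in empty vector. Every point lies left of 0 and every interval spans 0, from the lowest bound of -0.37 (Smc1a) to the highest of 0.17 (Pds5b).

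Values per culture are not given, because the 4 columns of values per library have names that match no sample label and were not used. Each member is therefore described by the mean over the libraries of its size-factor-normalized count, the log2 fold change and its standard error (SE), all as deposited. The numerator of the fold changes is not named in the table, and the sign is read in the order of the design text, guide against vector. The grouping behind the fold changes could not be checked. If it had followed the treatment tag, the values would compare the second replicate with the first. The table did hold the markers of the labelled cells: Cd4 had a mean normalized count of 15286, and all 10 markers of Th17 and CD4 T cells in the list used had a mean of at least 10, per the authors' deposited table. The 4 B cell markers examined were also above that mean, at 129 to 361, as were 3 of 5 myeloid and dendritic markers (highest Cd68, 59.8), 2 of 4 CD8 T and NK markers (highest Cd8a, 287) and 2 of 4 mast cell markers (highest Kit, 66.8), per the authors' deposited table. In the authors' deposited table the log2 fold changes of these 4 sets ran from -0.42 to 0.43, from 0.43 to 1.35, from 0.20 to 0.74 and from -5.66 to 0.03, over markers averaging at least 10. The SEs in the same sets were large, from 0.51 to 3.97, from 0.56 to 1.32, from 0.30 to 0.71 and from 0.54 to 1.26. Of the Th17 and CD4 T markers, 9 of 10 were above 0 and none passed, while 49.5% of all genes averaging at least 10 were below 0. These markers ran from -0.19 to 1.11, with a median of 0.10, per the authors' deposited table. The highest were Il17f at 1.11 ± 0.53 and Il17a at 0.70 ± 0.15. The lowest mast cell value was that of Cpa3, at -5.66 ± 1.26, per the authors' deposited table. Il17a and Cpa3 had a DESeq2 adjusted p of 0.0709 per the authors' deposited table. The part of other cells in the values of the cohesin genes was not tested, and in bulk RNA fewer cells of a type and less RNA per cell cannot be told apart.

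RefSeq promoter windows (GRCm38.p6, 250 bases before to 50 after the start) were given for 7 of the 10 members, all but Rad21, Stag2 and Nipbl. The windows of a ring gene, a STAG gene, a PDS5 gene and Ctcf are printed 5′ to 3′ on the gene's strand, with the letters of a matched motif in capitals. Every window with E2F letters, given below, is among those printed, while the windows of Smc3, Wapl and Pds5b are not printed.
Smc1a (chrX:152016178-152016477, plus strand): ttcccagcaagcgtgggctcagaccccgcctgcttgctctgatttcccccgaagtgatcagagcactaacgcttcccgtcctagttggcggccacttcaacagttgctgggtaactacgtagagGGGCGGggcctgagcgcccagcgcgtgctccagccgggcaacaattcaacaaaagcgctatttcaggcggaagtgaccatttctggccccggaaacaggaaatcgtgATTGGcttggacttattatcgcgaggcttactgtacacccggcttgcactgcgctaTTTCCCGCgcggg
Stag1 (chr9:100643198-100643497, plus strand): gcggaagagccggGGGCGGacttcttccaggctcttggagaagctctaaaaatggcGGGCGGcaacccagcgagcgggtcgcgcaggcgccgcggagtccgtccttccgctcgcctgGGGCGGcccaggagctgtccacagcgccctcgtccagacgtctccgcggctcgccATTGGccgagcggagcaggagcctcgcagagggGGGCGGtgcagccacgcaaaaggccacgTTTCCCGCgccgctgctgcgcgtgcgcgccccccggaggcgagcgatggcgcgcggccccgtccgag
Pds5a (chr5:65698187-65698486, minus strand): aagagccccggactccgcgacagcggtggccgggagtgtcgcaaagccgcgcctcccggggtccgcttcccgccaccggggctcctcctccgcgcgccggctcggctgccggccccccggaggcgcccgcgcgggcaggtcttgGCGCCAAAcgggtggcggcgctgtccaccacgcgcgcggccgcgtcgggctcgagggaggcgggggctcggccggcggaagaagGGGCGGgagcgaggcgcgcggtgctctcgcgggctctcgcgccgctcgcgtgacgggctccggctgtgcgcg
Ctcf (chr8:105636288-105636587, plus strand): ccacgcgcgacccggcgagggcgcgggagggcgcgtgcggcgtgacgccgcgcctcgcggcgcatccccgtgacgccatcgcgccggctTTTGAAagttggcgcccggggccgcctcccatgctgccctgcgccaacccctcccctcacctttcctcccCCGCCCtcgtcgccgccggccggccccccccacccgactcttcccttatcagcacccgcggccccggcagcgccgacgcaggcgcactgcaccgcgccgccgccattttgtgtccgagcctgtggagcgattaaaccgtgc
The 7 windows had the base composition of CpG islands, with 58.3% to 80.3% GC, against a median of 52.7% over all 32851 windows, and an observed over expected CpG ratio of 0.903 to 1.16, against a median of 0.384. Motif letters were searched on both strands, and in the 7 windows no matches of different motifs overlapped. Among motifs with a match, the GC box letters GGGCGG stood in 7 of 7 windows, against 35.7% of all windows and 77.8% of the 4168 windows with a CpG ratio of at least 0.9. The CCAAT letters stood in Smc1a, Stag1, Wapl and Pds5b, against 37.4% of all windows and 31.6% of the CpG-rich ones. The E2F letters TTTCCCGC stood in Smc1a and Stag1, against 1.07% of all windows and 3.14% of the CpG-rich ones. A second E2F form, TTTGGCGC, stood in Pds5a, against 0.514% of all windows and 1.37% of the CpG-rich ones. In the Smc1a window the first of these forms begins 37 bases after the start, and in the Stag1 window 17 before it. The letters TTTGAA of the cell cycle homology region stood in Ctcf and Pds5b (17.9% of all windows, 8.54% of the CpG-rich ones). The ETS letters CCGGAAG (8.86% of all windows, 21.4% of the CpG-rich ones) and the CRE letters TGACGTCA (1.79% and 4.80%) stood in 0 of the 7. The RefSeq start of Stag1 lies 45650 bases inside the GENCODE gene, while those of the other 6 lie within 88 bases of the GENCODE start. A match is only a string of letters, and binding was not measured.

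Smc1a, Smc3 and Rad21 encode the 3 parts of the ring, the pair of ATPases and the kleisin that closes it. Smc1a (ENSMUSG00000041133.11) spans chromosome X, 152016428 to 152062694 on the plus strand (mm10), and averaged 5099 normalized counts. Its log2 fold change was -0.14 ± 0.12 (SE), unadjusted p = 0.221, per the authors' deposited table, and the 95% interval ran from -0.37 to 0.09. This corresponds to 0.905-fold, with bounds of 0.772 and 1.06. The SE of Smc1a was 1.23 times the running median of genes with a similar mean, while the other 9 members lay between 0.984 and 1.06 times theirs. Smc3 (ENSMUSG00000024974.10) spans chromosome 19, 53600398 to 53645833 on the plus strand (mm10), and lay at -0.15 ± 0.11 with a mean of 3182 and an unadjusted p of 0.169 per the authors' deposited table. Rad21 (ENSMUSG00000022314.10) spans chromosome 15, 51962240 to 51991747 on the minus strand (mm10); at 7259 normalized counts it had the highest mean of the 10, and its log2 fold change was -0.08 ± 0.10 per the authors' deposited table (unadjusted p = 0.427). The estimates of both SMC genes thus lay further below 0 than that of Rad21, but their intervals overlapped over most of their length, and the difference between genes could not be tested without values per library.

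STAG1 and STAG2 are alternative subunits, of which a given cohesin ring holds only one. STAG2 is in many cell types the more abundant, and STAG1 is linked to longer-lived binding at CTCF sites. Stag1 (ENSMUSG00000037286.15) spans chromosome 9, 100597798 to 100959375 on the plus strand (mm10), a locus of 361578 bases that is the longest of the 10, and averaged 1849 normalized counts, at a log2 fold change of -0.07 ± 0.12 per the authors' deposited table (unadjusted p = 0.545). Stag2 (ENSMUSG00000025862.14) spans chromosome X, 42149317 to 42277185 on the plus strand (mm10), and averaged 4989 normalized counts, at a log2 fold change of -0.02 ± 0.09 per the authors' deposited table (unadjusted p = 0.800). The estimate of Stag2 was the nearest to 0 among the members. Per kilobase of annotated exon, Stag2 had 603 normalized counts and Stag1 157, so that Stag2 made up 79.4% of the sum of both levels, or 73.0% when the longest coding transcript gave the length.

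NIPBL, the loader, is required for cohesin to extrude loops. Nipbl (ENSMUSG00000022141.7) spans chromosome 15, 8290617 to 8444463 on the minus strand (mm10), and averaged 4981 normalized counts per the authors' deposited table. Its log2 fold change of -0.17 ± 0.10 per the authors' deposited table was the lowest of the 10 (unadjusted p = 0.0890) and corresponds to 0.890-fold. The interval ran from -0.36 to 0.03. Among genes averaging at least 1000, 3.06% had a lower log2 fold change and 1.28% a lower Wald statistic than Nipbl. Its adjusted p per the authors' deposited table was 1.00, as for the other 9 members. Mau2, the partner of NIPBL in the loader, lay at 0.01 ± 0.15 with a mean of 1153 per the authors' deposited table, and its interval overlapped that of Nipbl. The GC and length trend is described further on. With its fit over genes averaging at least 10 removed, Mau2 was at -0.0067 and Nipbl at -0.12.

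WAPL opens the ring and takes cohesin off DNA, and the PDS5 proteins act with it, while they also serve cohesin acetylation and the halting of extrusion at CTCF. Wapl (ENSMUSG00000041408.18) spans chromosome 14, 34673928 to 34747983 on the plus strand (mm10); it averaged 5742 normalized counts, at a log2 fold change of -0.07 ± 0.09 per the authors' deposited table (unadjusted p = 0.437). Pds5a (ENSMUSG00000029202.12) spans chromosome 5, 65605721 to 65698273 on the minus strand (mm10); it averaged 4609 normalized counts, at a log2 fold change of -0.14 ± 0.10 per the authors' deposited table (unadjusted p = 0.140). Pds5b (ENSMUSG00000034021.15) spans chromosome 5, 150673739 to 150810690 on the plus strand (mm10); it averaged 2113 normalized counts, at a log2 fold change of -0.06 ± 0.12 per the authors' deposited table (unadjusted p = 0.612). The PDS5 paralogs had near levels per kilobase of annotated exon, 238 normalized counts for Pds5a and 215 for Pds5b. The share of Pds5a depends on the length used, 52.6% by all annotated exons (19335 bases for Pds5a) and 64.4% by the longest coding transcript (8934 bases).

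CTCF, a zinc finger protein, marks most loop ends and domain boundaries. Ctcf (ENSMUSG00000005698.15) spans chromosome 8, 105636568 to 105682922 on the plus strand (mm10), and averaged 1960 normalized counts. Its log2 fold change was -0.08 ± 0.12 per the authors' deposited table (unadjusted p = 0.517), and the interval ran from -0.32 to 0.16. Its exons hold 48.5% GC, the highest of the members. The estimate for Ctcf lay beside those of Rad21, Stag1 and Wapl, all of which were within 0.01 of it on the log2 scale.

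The 10 genes differed widely in level, and Rad21 stood apart from the rest. It led with 1715 normalized counts per kilobase of annotated exon, followed by Smc1a (884), Wapl (867), Stag2 (603), Smc3 (574), Nipbl (529), Ctcf (403), Pds5a (238), Pds5b (215) and Stag1 (157). With the longest coding transcript as length, Rad21 stayed first at 1835 and Pds5b replaced Stag1 as the lowest, at 285 against 299. Neighbours in this order cannot be told apart here, since the spread over cultures was not available. The members together held 0.236% of all mean normalized counts, and each lay at or above percentile 86.0 of the genes averaging at least 10.

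**Figure D2:**
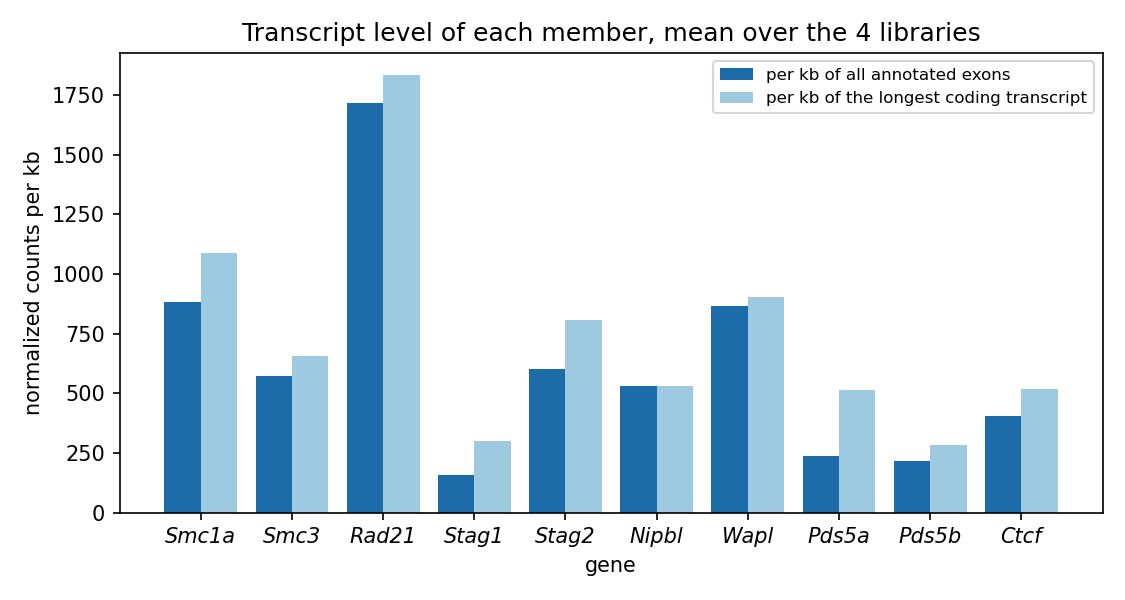
Mean normalized count over the 4 libraries divided by length in kilobases for each member, with the length of all annotated exons (dark bars) or of the longest coding transcript (light bars). Rad21 stands highest by both lengths, at 1715 and 1835, and Stag1 and Pds5b are the lowest.

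The SEs set which differences could have passed. All 10 intervals hold the range from -0.21 to 0.03 on the log2 scale, which includes 0. No interval reached below 0.772-fold (Smc1a) or above 1.13-fold (Pds5b), as single-gene 95% intervals. To pass the adjusted threshold alone, the log2 difference of a member had to reach 0.44 (Wapl) to 0.59 (Stag1) in size at its SE, and the largest observed was that of Nipbl at -0.17 per the authors' deposited table. The plot of fold change against mean count places the members inside the cloud of genes with similar means.

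**Figure D3:**
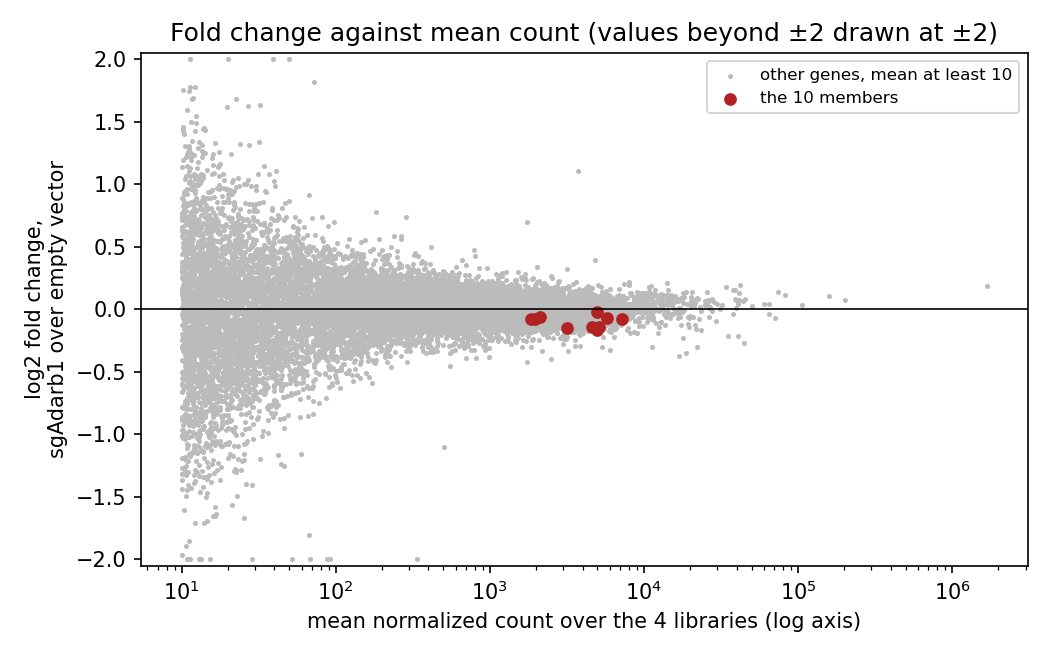
Log2 fold change (sgAdarb1 over empty vector) against the mean normalized count on a log axis for the 14547 genes averaging at least 10 (grey) and the 10 members (red). The members sit at means from 1849 to 7259, just below 0 and within the cloud of other genes.

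The median GC content of the members was lower and their median length greater than those of well-counted genes, among which fold changes varied with GC content. The exons of the members held a median of 41.9% GC, against 47.9% over genes averaging at least 1000, and had a median length of 7448 bases, against 5492. Stag1 had the lowest GC content, 39.4%, and Stag2, Pds5a and Pds5b were between 39.8% and 40.2%. Ctcf, at 48.5%, lay above the median of genes averaging at least 1000, and Rad21 (4232 bases) and Ctcf (4860 bases) were shorter than their median length. Over genes averaging at least 1000, the log2 fold change was higher by 0.06 for each 10 percentage points of GC in a linear fit with log2 length, which held 19.9% of the variance. Of the 1787 such genes whose GC content lay within the range of the members, 65.0% had a log2 fold change below 0, with a median of -0.03. These genes were not matched to the members within that range of 39.4% to 48.5%, in which most members lay toward the low end. Fitted over genes averaging at least 10, the GC slope was 0.09 per 10 percentage points, and the fit held only 3.20% of the variance. The slope per doubling of length was 0.013 in this fit and -0.014 in the fit over genes averaging at least 1000. With the trend fitted over genes averaging at least 10 removed, 8 of 10 members remained below 0, with a median of -0.06. Of genes averaging at least 1000, 47.2% were below 0 after this step. Stag2 turned to 0.05 and Pds5b to 0.01, Stag1 lay at -0.00 and Wapl at -0.01. Smc1a, at -0.12, and Nipbl, at -0.12, kept most of their distance from 0, and Ctcf was nearly unmoved at -0.07. Smc3 moved to -0.08, Pds5a to -0.08 and Rad21 to -0.05, each nearer to 0 than as deposited. With the trend fitted over genes averaging at least 1000, 8 of 10 members were again below 0, against 50.1% of those genes, with a median of -0.07. In that fit Smc3 lay at -0.11, Pds5a at -0.07 and Rad21 at -0.07. The Wald statistics over genes averaging at least 10 had a robust spread of 0.541, narrower than the value of 1 that the deposited p-values assume. Divided by that spread, the statistics of Nipbl, Pds5a, Smc3 and Smc1a reached an unadjusted p below 0.05, 4 of 10 members against 14.0% of genes averaging at least 1000, and none passed after adjustment (lowest adjusted p = 0.193, Nipbl). Divided by the spread of 0.696 found over genes averaging at least 1000, 3 of 10 members did so, against 6.77% of those genes, and none passed (lowest adjusted p = 0.554). Both scalings used the Wald statistics as deposited, with the GC and length trend still in them. Scaling and trend removal were not combined, so how many members would stay below 0.05 with both is not given. The part of library composition in the trend was not tested.

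**Figure D4:**
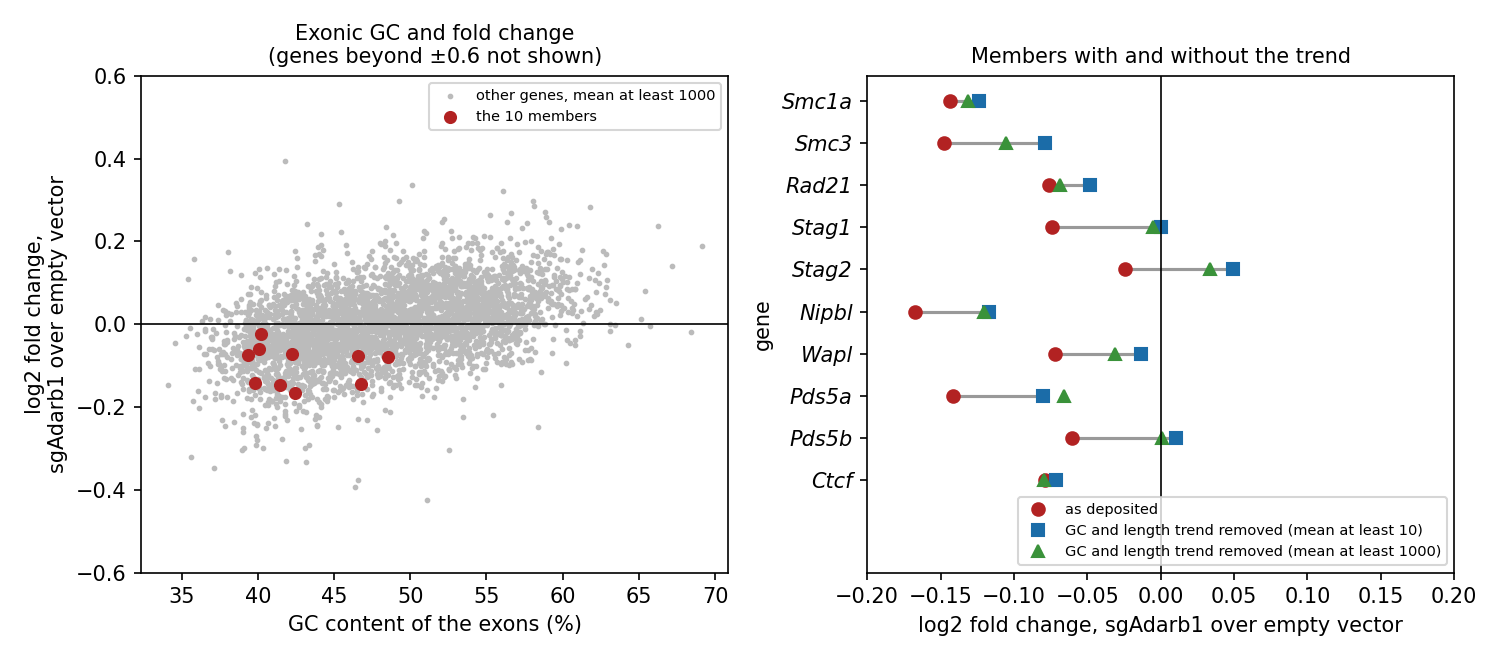
Left, log2 fold change (sgAdarb1 over empty vector) against exonic GC content for genes averaging at least 1000 (grey) and the 10 members (red). Right, each member's log2 fold change as deposited (circles) and after removal of the GC and length trend, fitted over genes averaging at least 10 (squares) or 1000 (triangles). All circles lie below 0, while Stag2 and Pds5b cross to the positive side in both fits.

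Few reads were assigned to genes that overlap the members, and no near-identical copies were found. In GENCODE M21, 18 other genes overlapped 6 of the members, on either strand, and the highest mean among them was 24.7 normalized counts, that of Gm37204 within Stag1, or 1.34% of the mean of Stag1, per the authors' deposited table. Listed at a mean of 0 were 2 of the 18, which had no test, and none of the other 16 passed (0 with adjusted p below 0.05 and 0 with unadjusted p below 0.05 per the authors' deposited table, DESeq2). Over all genes these shares were 0.00% and 0.208%. The SEs of the 16 ran from 0.90 to 4.96, so only large differences could have reached either threshold. A BLAST search of each member's longest coding transcript against all M21 transcripts found 0 other genes with at least 95% identity over at least 200 bases.

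Other genes of the cohesin cycle lay mostly on the same side, and none passed. Of 14 such genes, all with a mean of at least 10, 12 were below 0 and 2 above per the authors' deposited table. Of all genes averaging at least 10, 49.5% were below 0. Among the 14, 0 passed and 0 had an unadjusted DESeq2 Wald p below 0.05, which 0.208% of all genes had. Their median log2 fold change was -0.14 per the authors' deposited table. The acetyltransferase genes Esco1 and Esco2, whose products lock cohesin on DNA, lay at -0.14 ± 0.16 and -0.14 ± 0.20 per the authors' deposited table. Hdac8, which encodes the deacetylase that reverses this mark, was at -0.11 ± 0.38 and Cdca5, which encodes the WAPL antagonist sororin, at -0.05 ± 0.22 per the authors' deposited table. The shugoshin genes Sgo1 and Sgo2a, whose products protect centromeric cohesin, lay at -0.33 ± 0.22 and -0.17 ± 0.27 per the authors' deposited table. Espl1, the gene of separase, which cuts RAD21 at anaphase, was at -0.15 ± 0.16, and Plk1, a mitotic kinase gene that acts in cohesin removal, at -0.15 ± 0.15 per the authors' deposited table. Pttg1, the gene of the separase inhibitor securin, lay on the other side at 0.23 ± 0.29 per the authors' deposited table. The replication-linked genes Ddx11, Dscc1, Chtf8 and Chtf18 were between -0.33 and -0.03 per the authors' deposited table, and of the 2 identifiers named Chtf8 the one with reads was used. After removal of the GC and length trend fitted over genes averaging at least 10, 13 of the 14 were below 0. Their median was -0.07, and 47.2% of genes averaging at least 1000 were below 0 after the same step. Most of the 14 had lower counts than that comparison set, with means from 37.1 to 1153.

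Germline relatives had low counts. Stag3 and Rec8, a meiotic STAG subunit and a meiotic kleisin, had means of 32.5 and 23.5 normalized counts and log2 fold changes of 0.48 ± 0.77 and -0.00 ± 0.89 per the authors' deposited table. Smc1b, Rad21l and Ctcfl had means of 4.34, 0.261 and 4.19 per the authors' deposited table, and the SEs of their log2 fold changes were 2.04, 4.97 and 1.98. The somatic genes Smc1a, Rad21 and Ctcf stood at means of 5099, 7259 and 1960 per the authors' deposited table.

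Genes of the related SMC complexes were also mostly below 0, as were 50.8% of all genes averaging at least 1000 and 65.0% of those in the GC range of the members. Of 8 genes of the Smc5/6 complex, which acts in DNA repair, 7 were below 0 and 1 above, with a median of -0.10 and none passing per the authors' deposited table: Smc6 was at -0.13 ± 0.12, Smc5 at -0.10 ± 0.12 and Nsmce1, the one above 0, at 0.05 ± 0.15. The other 5, Nsmce2, Nsmce3, Nsmce4a, Slf1 and Slf2, ran from -0.17 to -0.03 per the authors' deposited table. Of 8 condensin subunits, which compact mitotic chromosomes, 7 were below 0 and Ncaph2 was at 0.01 ± 0.12 per the authors' deposited table, with a list median of -0.18. None of the 8 passed and 2 had an unadjusted DESeq2 Wald p below 0.05 per the authors' deposited table, against 1.31% of genes averaging at least 1000. These were Smc4 at -0.30 ± 0.11 and Smc2 at -0.29 ± 0.11, beside Ncapg at -0.20 ± 0.13 and Ncaph at -0.21 ± 0.15. Both condensin SMC estimates lay below those of all 10 cohesin and CTCF genes, a difference that was not tested. Partners at loops and boundaries had 7 of 10 genes below 0, with a median of -0.04 per the authors' deposited table and none passing. Among them the Mediator subunit gene Med1 was at -0.08 ± 0.11, Vezf1 at -0.09 ± 0.15, Chd8, a CTCF-binding remodeller gene, at -0.04 ± 0.10, and Maz at 0.05 ± 0.14 per the authors' deposited table. The GC and length trend fitted over genes averaging at least 10 was then removed. After this, 6 of 8, 8 of 8 and 9 of 10 genes of these 3 lists were below 0. The share was 47.2% over genes averaging at least 1000, a mean that some of the Smc5/6 and partner genes did not reach. The medians were -0.03, -0.12 and -0.05, so that the order of the Smc5/6 and partner medians depends on this step.

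**Figure D5:**
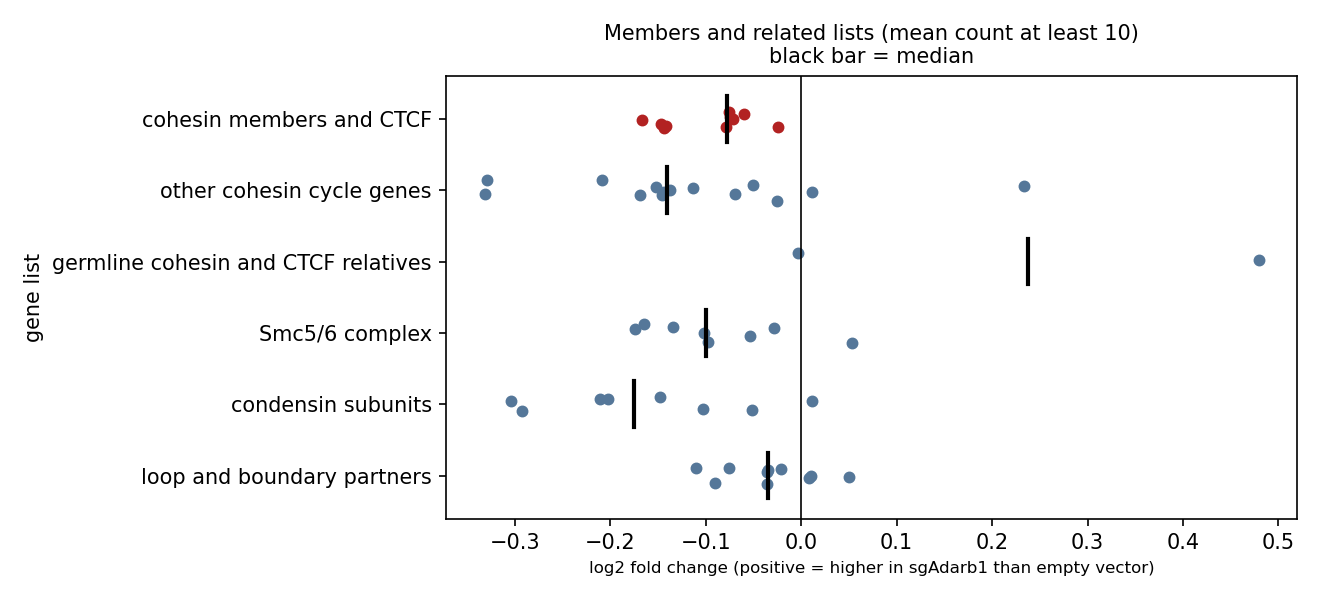
Log2 fold change of each gene with a mean normalized count of at least 10 in the members (red) and 5 related lists (blue). Positive values are read as higher in sgAdarb1 than in empty vector. The median is a black bar, and points are spread vertically for clarity. The members lie between -0.17 and -0.02, within the span of the other cohesin cycle genes (-0.33 to 0.23), and the condensin median of -0.18 lies lowest.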

How the data were processed

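RNA was measured by sequencing of ribosome-depleted libraries from 4 cultures. The submitters' processing notes list mm10 as the build and DESeq2 1.18.1, featureCounts and STAR 2.6.1a as tools. The model formula, any donor term, strand setting and annotation were not given in the sources used here. Per the file headers, the authors deposited for each gene a signal (size-factor-normalized counts averaged over libraries, here the mean normalized count), the log2 fold change and its SE, a Wald score, a p-value and an adjusted p-value. Recomputing Benjamini-Hochberg values gave the deposited adjusted p over the 29383 genes with a fold change. Another 4 columns of values per library matched no sample label and were not used, so depths per library, refits and pairing by donor were not available.

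All 55450 identifiers matched GENCODE M21, which gave symbols, positions, exonic length and GC content. Intervals of 95% are the fold change plus or minus the normal quantile times the SE. Linear trends were computed with numpy 2.4.6 and scipy 1.17.1, and copies were searched with BLAST 2.17.0. The fitting code was run on data simulated with a linear trend, which cannot show whether the trend in these data is linear. Motif letters, the CpG-rich promoter subset, the GC range for comparison and the settings over genes averaging at least 1000 were chosen after values were seen. Members and lists were chosen with earlier results of these data known. Named were all 10 members; any gene of the cohesin cycle, germline and Smc5/6 lists could be named, as could the 4 of smallest p in the condensin and partner lists, and the marker of highest mean per cell type, except that 4 B cell markers are given by range and a further one is not reported here. Il17a, Il17f, Cpa3, Ncaph2 and Gm37204 were named after their values were seen. No measure of likeness to other genes was possible with 1 fold change per gene.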

Additional observations from a re-analysis of the deposited data

How the results depend on the processing

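No paired analysis was possible because the library columns bear names that fit no sample, and for the same reason edgeR refits and omission of a culture were not run. Against 0 members and 0 genes at the deposited adjusted p below 0.05, 0 members passed under every setting run. Over all genes, 3 passed at 0.1 and 0 at 0.01, 3 and 2 passed when adjusted over genes averaging at least 10 or 50, a smaller family of tests, and 1 passed after removal of the GC and length trend. Wald statistics had a robust spread of 0.541 over genes averaging at least 10, and dividing by it called 34 genes, on the assumption that few genes differ. Chosen after the data were seen, the spread over genes averaging at least 1000 (0.696) called 2 genes, and the trend fitted over those genes called 1. The count of members below 0 was 10 under both centrings and 8 with either trend removed, and the median ran from -0.08 to -0.06. Among those 8, Stag1 lay at only -1.4e-05 with the trend fitted over genes averaging at least 10 removed. With the trend removed Stag2 turned to 0.049 (0.033 when fitted over genes averaging at least 1000) and Pds5b to 0.011 (0.00093 in that fit); the cause was not tested. Depth per library was not used, so the deposited SE sets what was detectable.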
